A study of Drosophila melanogaster with 12 samples.

Results

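_297_, _opus_, and _GATE_ are LTR retrotransposons of the gypsy group in Drosophila melanogaster, and the values below are the piRNAs against these elements that were bound to Ago3, Aub, and Piwi in ovaries. The members are the rows named '297' (FBgn0000005), 'opus' (FBgn0003007), and 'GATE' (FBgn0015945), which make up 3 of the 126 transposon families in each of the 12 libraries. The deposited tables class _297_ and _opus_ as germline dominant and leave _GATE_ without a class. Every library held piRNAs in both orientations for all 3 members, and all 3 passed the filter of a mean of at least 100 read copies.

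LTR retrotransposons copy themselves through an RNA that is reverse transcribed and inserted elsewhere in the genome. In the fly germline, piRNAs antisense to the element guide Aub to cut its transcripts, and the cut transcript yields sense piRNAs that are loaded into Ago3, which in turn cuts antisense precursors. This cycle is called ping-pong. Piwi carries piRNAs into the nucleus, where it silences transcription, and works in the germline and in the somatic follicle cells around it, whereas Aub and Ago3 are germline proteins. The orientation of the piRNAs bound to each protein therefore bears on ping-pong. The paper measures ping-pong by the overlap of Aub and Ago3 piRNAs and by their nucleotide composition. The counts used here hold neither, so the sense shares below are no direct measure of it.

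Ovaries came from flies aged 2 to 5 d. In aubRK, the 4 arginines at the N-terminus of Aub that Tudor proteins bind are lysines, and aubWT carries the matching wild-type protein. Both are UAS-3xHA:aub transgenes driven in the germline by nos-Gal4 in aub[QC42/HN2] flies, which lack endogenous Aub. csulRM50 is a loss-of-function allele of the enzyme that methylates those arginines, and w1118 is its control. y w (y[1] w[1]) flies have their own Aub. Ago3 was sampled in aubRK, aubWT, csulRM50, w1118, and y w, Aub in the same genotypes except y w, and Piwi in aubRK and aubWT. There were 2 libraries for Piwi in aubRK and 1 library in each of the other 10 groups, so a difference between genotypes has no replicate check. The antibodies for csulRM50 and w1118 came from another laboratory than those for the other genotypes, and the paper cites another library protocol for them. No fold change or difference in sense share between groups below crosses that line, but ranges over all 12 libraries do. Where levels of all 12 libraries are ranked, correlated, or given as a range, genotype, antibody source, and protocol cannot be told apart except through y w.

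Libraries held between 1338017 and 47217032 read copies on transposons. Values are CPM, read copies scaled to a total of 1000000 on transposons in each library. They are not divided by the length of the element, so levels are compared between libraries and not between elements. The interval of each member's sense share (Wilson, 95%) reached at most 0.494 points to either side. It covers counting error only and takes read copies as independent. Most libraries have no molecular barcodes, so repeated reads of a molecule may make it too narrow even for that. The 3 libraries with a random barcode are Ago3 aubWT, Piwi aubWT, and the second Piwi aubRK library. There identical reads had been collapsed before the barcode was removed, so reads of the same sequence with different barcodes stayed apart. Counting identical reads once, as below, changes nothing in these libraries. Against a library without barcode it therefore sets unlike measures side by side. In the other 9, a member had between 5.72 and 45.7 read copies per distinct read. The 2 Piwi aubRK libraries differed in this way and give the one measure of the spread within a group. For _297_ they were 0.26 apart on the log2 CPM scale and 0.216 points apart in sense share. For _opus_ these gaps were 0.19 and 1.92 points, and for _GATE_ they were 0.14 and 1.26 points. Over all transposons, 6 of 123 were more than 2-fold apart between the 2 libraries. The median gap in sense share was 2.44 points over 118 transposons. When identical reads are counted once, the sense shares of the first library are 24.6% for _297_, 38.6% for _opus_, and 46.1% for _GATE_. The second has the barcode and stays at 13.6%, 31.5%, and 44.3%, so these are unlike measures and no replicate spread.

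The Ago3 libraries of aubWT and aubRK bear on the comparisons below. Ago3 aubWT had the highest sense share over all transposons, 56.2%. Ago3 aubRK differed from the mean of the Piwi aubRK libraries by less than 2-fold for each of the 123 transposons tested. Such closeness was also seen between Ago3 and Aub in csulRM50, with 0 of 123 past 2-fold, and in w1118, with 3 of 123. A list of 6 elements known for piRNAs of the follicle cells (_gypsy_, _gypsy5_, _ZAM_, _Idefix_, _gtwin_, _Tabor_) took 4.22% of Ago3 aubRK, against 0.546% of Ago3 aubWT and 2.12% of Ago3 y w. The same list took 0.677% of Aub aubRK, against 0.388% of Aub aubWT, and between 4.42% and 5.48% of the Piwi libraries. It took 0.980% of Ago3 csulRM50 against 0.508% of Ago3 w1118, and 0.964% of Aub csulRM50 against 0.466% of Aub w1118. None of the 6 was at 0 in any library. The part of these differences in the results below was not tested. For that reason Ago3 aubRK is given against both aubWT and y w. In such bulk samples, fewer cells that make a piRNA and less of it per cell cannot be told apart. The tables hold transposons alone, so no gene of the ovary could be checked against the labelled tissue.

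The 3 members together took 11.4% of the reads in Ago3 aubRK, 14.8% in Ago3 aubWT, 10.3% in Ago3 csulRM50, 5.95% in Ago3 w1118, and 6.69% in Ago3 y w. In Aub they took 16.7% in aubRK, 15.9% in aubWT, 10.8% in csulRM50, and 6.96% in w1118. In Piwi they took 10.8% and 10.1% in aubRK and 8.90% in aubWT. Their joint share was thus lowest in w1118 and y w and highest with Aub in the 2 transgenic genotypes.

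**Figure D1:**
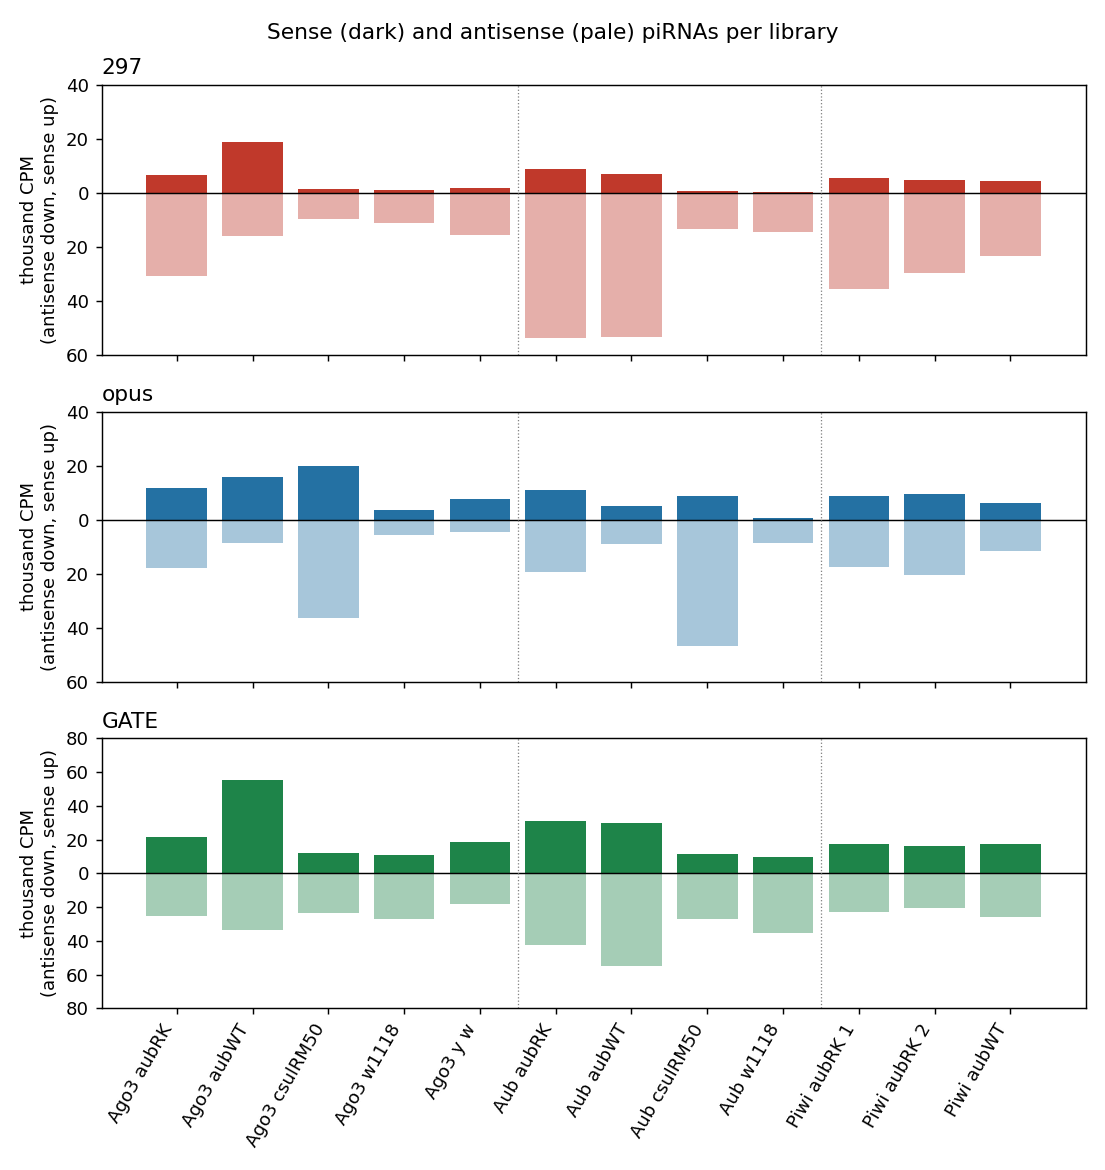
CPM of _297_, _opus_, and _GATE_ in the 12 libraries, with sense piRNAs as dark bars above 0 and antisense piRNAs as pale bars below it; each bar is 1 library, and the panels have different scales. _297_ lies mostly below 0 except in Ago3 aubWT (18691 CPM sense), _opus_ is highest in csulRM50, and _GATE_ has long bars on both sides.

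_297_ was mostly antisense. Its sense share was 17.8% in Ago3 aubRK, 54.1% in Ago3 aubWT, 12.3% in Ago3 csulRM50, 9.56% in Ago3 w1118, and 10.8% in Ago3 y w. In Aub it was 14.3% in aubRK, 11.4% in aubWT, 5.40% in csulRM50, and 2.26% in w1118. In Piwi it was 13.4% and 13.6% in aubRK and 15.2% in aubWT. Ago3 aubWT is the exception, since the other 11 libraries lie between 2.26% and 17.8%. The sense share of _297_ was below that of all transposons in 12 of 12 libraries, at -2.07 points from it in Ago3 aubWT and between -37.2 and -11.2 points in the others. In both libraries of w1118 and in Aub csulRM50, 1 transposon of 121 had a lower sense share than _297_, and in Ago3 csulRM50 there were 2.

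The level of _297_ was higher in the transgenic flies than in the others. It was 37524 CPM in Ago3 aubRK, 34541 CPM in Ago3 aubWT, 11081 CPM in Ago3 csulRM50, 12212 CPM in Ago3 w1118, and 17467 CPM in Ago3 y w. Aub held 62807 CPM in aubRK, 60489 CPM in aubWT, 14259 CPM in csulRM50, and 15031 CPM in w1118. Piwi held 40920 and 34259.7 CPM in aubRK and 27676 CPM in aubWT. The 7 libraries of transgenic flies did not overlap with the 5 of csulRM50, w1118, and y w. How many other transposons split in this way was not counted, so the split is not shown to be particular to _297_. Of these 5, all but y w also had the other antibodies and library protocol, so genotype, antibody source, and protocol cannot be told apart in this split. Only Ago3 y w was drawn with the same antibody as the Ago3 libraries of the transgenic flies. Between neighbours in this order, Aub aubRK and Aub aubWT, and Piwi aubRK, Ago3 aubRK, and Ago3 aubWT, lay closer than the 2 Piwi aubRK libraries, as did all of csulRM50, w1118, and y w.

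_opus_ piRNAs were more evenly split. The sense share was 39.8% in Ago3 aubRK, 64.1% in Ago3 aubWT, 35.4% in Ago3 csulRM50, 38.6% in Ago3 w1118, and 63.5% in Ago3 y w. It was 36.3% in Aub aubRK, 35.4% in Aub aubWT, 15.4% in Aub csulRM50, and 8.19% in Aub w1118. In Piwi it was 33.5% and 31.5% in aubRK and 34.7% in aubWT. Sense piRNAs of _opus_ were thus the majority in 2 libraries, Ago3 aubWT and Ago3 y w, which differ by 0.59 points, less than the Piwi aubRK pair. Counted once per distinct read, y w is at 51.6%, while aubWT has the barcode and stays at 64.1%. The difference is then 12.5 points, but between unlike measures.

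_opus_ was most abundant in csulRM50. Ago3 held 29614 CPM of _opus_ in aubRK, 24570 CPM in aubWT, 56329 CPM in csulRM50, 9204 CPM in w1118, and 12228 CPM in y w. Aub held 30636 CPM in aubRK, 13820.0 CPM in aubWT, 55544 CPM in csulRM50, and 9447 CPM in w1118. Piwi held 26308 and 29911 CPM in aubRK and 17860.3 CPM in aubWT. The highest library was 6.12 times the lowest, and both csulRM50 libraries lie above all others. How many other transposons have this order was not counted, so it is not shown to be particular to _opus_. Against the transgenic and y w libraries, the genotype, antibody source, and protocol of csulRM50 cannot be told apart.

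_GATE_ had the highest sense shares of the members with Piwi. Its sense share was 46.1% in Ago3 aubRK, 62.1% in Ago3 aubWT, 34.2% in Ago3 csulRM50, 28.6% in Ago3 w1118, and 50.5% in Ago3 y w. It was 42.2% in Aub aubRK, 35.2% in Aub aubWT, 29.4% in Aub csulRM50, and 21.7% in Aub w1118. In Piwi it was 43.1% and 44.3% in aubRK and 40.3% in aubWT. The 3 Piwi libraries lay 13.6 to 19.6 points above the sense share of all their transposons.

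_GATE_ also varied least, by 2.52-fold between its lowest and its highest library, against 5.67-fold for _297_. Both ranges cross the antibody sources, with Ago3 csulRM50 lowest and Ago3 aubWT (_GATE_) or Aub aubRK (_297_) highest. Ago3 held 47112 CPM of _GATE_ in aubRK, 89025 CPM in aubWT, 35283 CPM in csulRM50, 38096 CPM in w1118, and 37179.7 CPM in y w. Aub held 73848 CPM in aubRK, 84691 CPM in aubWT, 38424 CPM in csulRM50, and 45079.6 CPM in w1118. Piwi held 40563 and 36836 CPM in aubRK and 43424 CPM in aubWT. Ago3 aubWT, Aub aubWT, and Aub aubRK stood above the other 9 libraries, which lie between 35283 and 47112 CPM. It was not counted how many other transposons have this order.

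**Figure D2:**
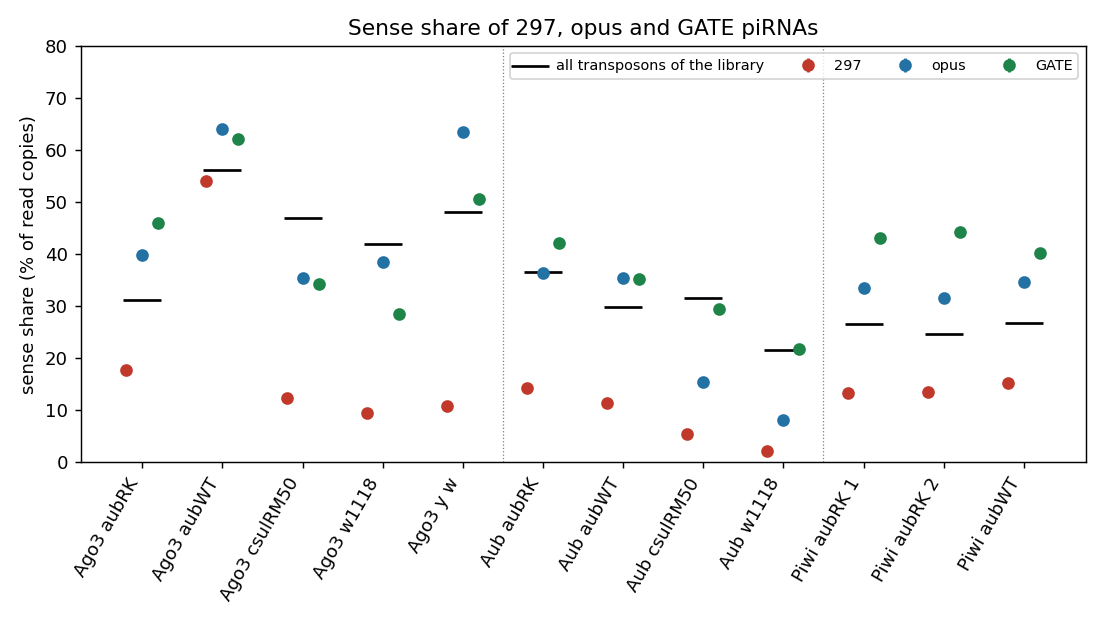
Sense share (percent of read copies) of _297_, _opus_, and _GATE_ in each of the 12 libraries, with the share of all transposons of that library as a black bar; points are single libraries with Wilson intervals, which are smaller than the points. _297_ lies below the black bar in every library and reaches 54.1% in Ago3 aubWT, whereas _GATE_ and _opus_ lie above it in all 3 Piwi libraries.

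The first comparison asks what the arginines of Aub change in the piRNAs it carries itself. Called means more than 2-fold, on log2(CPM + 1), with no test because the groups are single libraries. Between Aub aubRK and Aub aubWT, 22 of 123 transposons were called (17.9%), and 15 of them were higher in aubRK (12.2%). Of the members, _opus_ was called, at 30636 CPM in aubRK against 13820.0 CPM in aubWT, 2.22-fold higher (log2 1.15), and 8 transposons had a larger rise. Its sense and antisense piRNAs moved alike, by 2.28-fold and 2.18-fold. When identical reads are counted once, _opus_ is higher by 0.94 on the log2 scale and no longer past 2-fold, and with DESeq2 size factors no member is past 2-fold. _297_ (log2 0.05) and _GATE_ (log2 -0.20) were within 2-fold.

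The sense share in Aub was higher in aubRK than in aubWT by 2.86 points for _297_, 0.94 points for _opus_, and 6.94 points for _GATE_. The share over all transposons was higher by 6.65 points, so that _297_ and _opus_ were lower relative to their libraries (-3.80 and -5.71 points) and _GATE_ was not. The difference for _opus_ is within the gap of the Piwi aubRK pair, and 50.4% of 123 transposons had a higher sense share in aubRK.

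Ago3 is the partner of Aub in ping-pong, and here the members depend on the wild type they are set against. Against aubWT, Ago3 aubRK had 59 of 123 transposons called (48%), nearly all higher, and none of the members was among them. _297_ was at 37524 CPM in aubRK against 34541 CPM in aubWT (log2 0.12), and _opus_ was at 29614 CPM against 24570 CPM (log2 0.27). _GATE_ was at 47112 CPM in aubRK against 89025 CPM in aubWT (log2 -0.92), and 3 transposons were lower still. With TMM scaling _297_ (log2 -0.30) and _opus_ (log2 -0.15) have the other sign, as they do with DESeq2 size factors. The median over all transposons was 0.78 higher in aubRK, so relative to it _297_ was at -0.66, _opus_ at -0.51, and _GATE_ at -1.70. With TMM or DESeq2 scaling, _GATE_ passes 2-fold as lower in aubRK. It also does with identical reads counted once, where aubWT has the barcode and aubRK does not.

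Against y w, _297_ and _opus_ were called and both were higher in Ago3 aubRK. There 35 of 123 transposons were called (28.5%), 13 of them higher (10.6%). _opus_ was at 29614 CPM in aubRK against 12228 CPM in y w, 2.42-fold higher (log2 1.28). _297_ was at 37524 CPM against 17467 CPM, 2.15-fold higher (log2 1.10). With identical reads counted once, _297_ is higher by 0.79 and _opus_ by 1.21, so _opus_ alone stays past 2-fold. _GATE_ was at 47112 CPM in aubRK against 37179.7 CPM in y w (log2 0.34), the opposite direction to that against aubWT. The follicle list took 4.22% of Ago3 aubRK against 2.12% of Ago3 y w, and its part in these values was not tested.

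The orientation of Ago3 piRNAs split the members. The sense share of _opus_ was 39.8% in Ago3 aubRK, against 64.1% in aubWT and 63.5% in y w, which are differences of -24.3 and -23.7 points. With identical reads counted once the difference from y w is -11.3 points, so its size depends on how reads are counted. That from aubWT is then -23.8 points, but aubWT has the barcode and the measures are unlike. For _opus_, antisense piRNAs were 2.02-fold those of aubWT and 3.99-fold those of y w, while sense piRNAs were 0.749 and 1.52 times those levels. For _GATE_ the differences were -16.0 points against aubWT and -4.47 points against y w, of which the one against y w is -2.60 points with identical reads counted once. The sense share of _297_ was 17.8% in aubRK, against 54.1% in aubWT and 10.8% in y w, which are differences of -36.3 and 6.96 points. Against y w, 98 of 125 transposons had a lower sense share in aubRK (78.4%) and 27 a higher one (21.6%), and 9 rose more than _297_. Against aubWT, 22.8% of 123 had a higher one. The share over all transposons fell by 25.1 points against aubWT and by 17.0 points against y w. Relative to this, _opus_ was 0.82 points higher in aubRK than in aubWT and stood at -6.69 points against y w, whereas _GATE_ was 9.09 and 12.5 points higher. _297_ stood at -11.2 points against aubWT and at 23.9 points against y w on this measure.

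The 2 wild-type Ago3 libraries themselves differ. In Ago3 aubWT 68 of 123 transposons were past 2-fold from y w (55.3%), with 8 higher (6.5%) and 60 lower, and _opus_ and _GATE_ were among the 8. _GATE_ was at 89025 CPM in aubWT against 37179.7 CPM in y w (log2 1.26), _opus_ at 24570 CPM against 12228 CPM (log2 1.01), and _297_ at 34541 CPM against 17467 CPM (log2 0.98). For _297_ this was almost wholly sense RNA, at 18691 CPM in aubWT against 1892 CPM in y w, 9.87-fold higher. Its antisense level was 15850.2 CPM in aubWT against 15575 CPM in y w. The sense share was 54.1% against 10.8%, a gap of 43.3 points, and none of the 123 transposons rose more, while 59.3% had a higher sense share in aubWT. It is 38.8 points with identical reads counted once, but Ago3 aubWT has the barcode whereas y w does not, so the measures are unlike. The genotype and the adaptor of these libraries cannot be told apart.

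**Figure D3:**
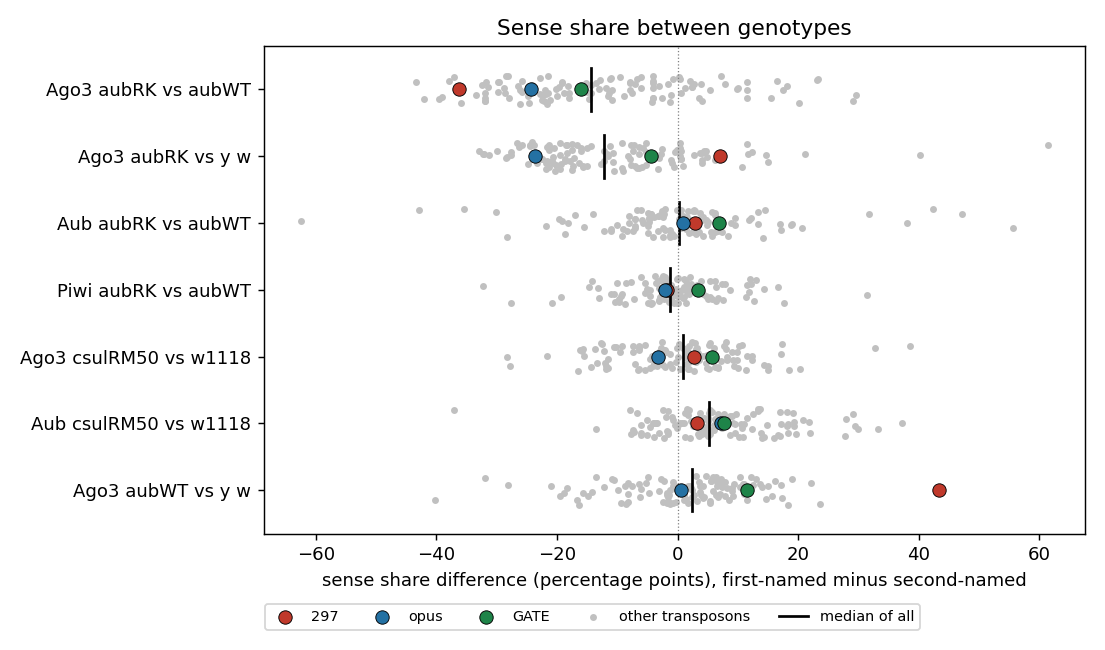
Differences in sense share (percentage points) between genotypes for the same protein, the first-named genotype minus the second; each grey point is 1 transposon, coloured points are the members, and black bars are medians over all transposons. _297_ lies at -36.3 in Ago3 aubRK against aubWT, at 6.96 against y w, and farthest right, at 43.3, in Ago3 aubWT against y w.

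In Piwi, no member passed 2-fold between aubRK and aubWT, where 14 of 123 transposons did (11.4%). Between the 2 aubRK libraries themselves, 6 of 123 did. _opus_ averaged 28109 ± 2548 CPM in aubRK (SD, n = 2) and was 17860.3 CPM in aubWT (log2 0.65). _297_ averaged 37590.1 ± 4710 CPM in aubRK (SD, n = 2) and was 27676 CPM in aubWT (log2 0.44). _GATE_ averaged 38700 ± 2636 CPM in aubRK (SD, n = 2) and was 43424 CPM in aubWT (log2 -0.17). These differences are larger than the gap within the aubRK pair, for _GATE_ only slightly. With TMM scaling _GATE_ has the other sign (log2 0.12). The sense shares moved by -1.77 points for _297_, -2.17 for _opus_, and 3.41 for _GATE_. With identical reads counted once, those of _297_ and _opus_ are 3.85 and 0.40 points. These values mix the first aubRK library, which has no barcode, with barcoded ones, so they are unlike measures. The barcoded second aubRK library stood at 13.6% for _297_, 31.5% for _opus_, and 44.3% for _GATE_. Piwi aubWT, also barcoded, stood at 15.2%, 34.7%, and 40.3%. Over all transposons, 39.7% of 116 had a higher sense share in aubRK.

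In csulRM50, _opus_ was higher than in w1118 with both proteins, and in CPM of both orientations these were the largest differences of a member in any comparison. Ago3 held 56329 CPM in csulRM50 against 9204 CPM in w1118, 6.12-fold higher (log2 2.61). Aub held 55544 CPM against 9447 CPM, 5.88-fold higher (log2 2.56). In each protein 2 transposons rose more. In Ago3, 50 of 123 transposons were called (40.7%), 11 of them higher (8.94%), and in Aub 49 were called (39.8%), 14 of them higher (11.4%). Relative to the median over all transposons, which was -0.60 in Ago3 and -0.57 in Aub, the rise of _opus_ is 3.21 and 3.13.

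Part of the size of this rise depends on how reads are counted. With identical reads counted once, _opus_ is higher by 1.65 in Ago3 and by 1.62 in Aub on the log2 scale, which is still past 2-fold. _opus_ had 14.6 read copies per distinct read in Ago3 csulRM50, against 6.70 in Ago3 w1118, and 12.8 in Aub csulRM50, against 6.03 in Aub w1118. Over all transposons these numbers were 8.25 against 7.37 and 7.23 against 6.52. On average, a distinct _opus_ read thus had more copies in csulRM50 than in w1118, in both proteins. Whether a few sequences account for this was not tested.

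Both orientations of _opus_ were higher in csulRM50. Antisense _opus_ was at 36402 CPM in Ago3 csulRM50 against 5655 CPM in w1118, 6.44-fold higher, and sense _opus_ at 19927 CPM against 3549 CPM, 5.61-fold higher. In Aub, antisense _opus_ was at 46964 CPM against 8674 CPM, 5.41-fold higher, and sense _opus_ at 8580 CPM against 773 CPM, 11.1-fold higher. The sense share of _opus_ therefore differed by 7.26 points in Aub and by -3.18 points in Ago3. In Aub the difference is -2.66 points relative to all transposons, and in Ago3 it is 2.61 points with identical reads counted once.

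_297_ and _GATE_ kept their levels within 2-fold in csulRM50, with log2 differences of -0.14 and -0.11 in Ago3 and of -0.08 and -0.23 in Aub, all of which turn positive with TMM or DESeq2 scaling and with identical reads counted once. Sense _297_ was at 769 CPM in Aub csulRM50 against 339 CPM in w1118, 2.26-fold higher, while antisense _297_ was 0.918 times its level in w1118. The sense shares of _297_ and _GATE_ were higher in csulRM50 by 2.78 and 5.65 points in Ago3 and by 3.14 and 7.65 points in Aub. Counting identical reads once gives 1.16 and 1.34 points in Ago3. In Aub it gives 4.09 points for _297_ and 2.72 points for _GATE_. All transposons together were higher by 5.13 points in Ago3 and 9.92 points in Aub, so that all of these but _GATE_ in Ago3 are lower relative to their libraries. A higher sense share in csulRM50 was found for 52.9% of 121 transposons in Ago3 and for 75.2% in Aub.

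**Figure D4:**
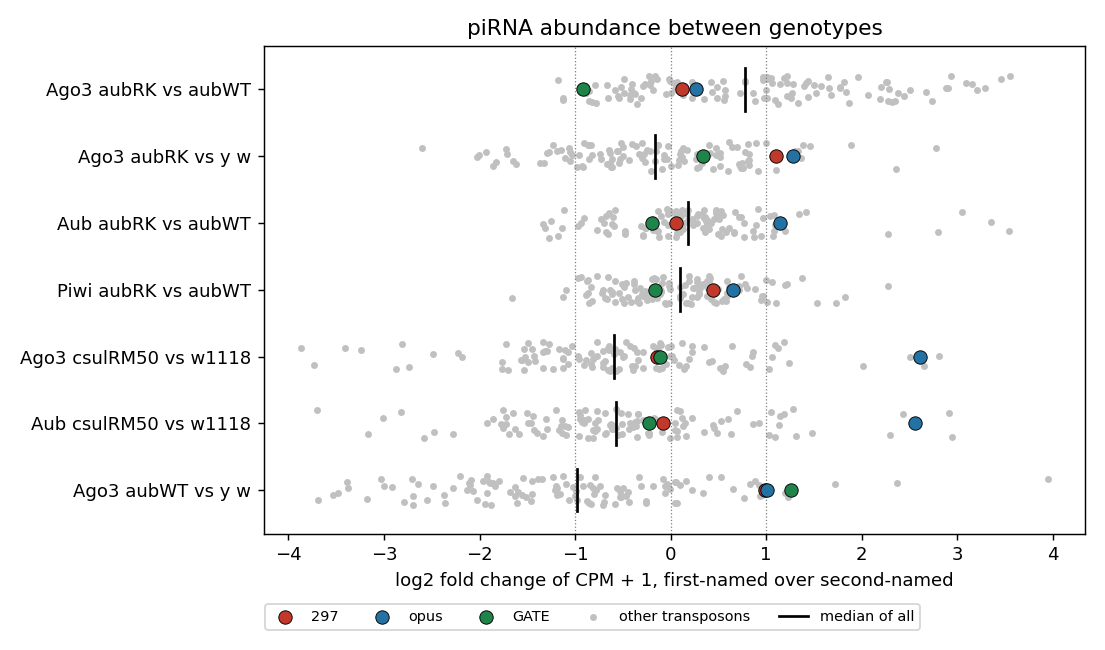
Log2 fold changes of CPM + 1 between genotypes for the same protein, the first-named genotype over the second; grey points are the other transposons of the 123 tested, coloured points the members, black bars medians over all, and dotted lines mark 0 and 2-fold. _opus_ stands near 2.6 in both csulRM50 comparisons, and _GATE_ lies at -0.92 in Ago3 aubRK against aubWT.

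Of a list of 41 other gypsy-group elements, 27 were more than 2-fold higher and 1 was lower in Ago3 aubRK than in aubWT, with a median log2 difference of 1.43, while over all 123 transposons 56 were higher and 3 lower. The other 13 of the list were within 2-fold, as the members were. _gypsy10_ rose most of the list (log2 3.55) and _gypsy12_ fell most (log2 -1.12). _17.6_, a close relative of _297_, was at 9651 CPM in aubRK against 3576 CPM in aubWT, and its sense share was 23.7% against 62.8%. _412_ was at 30291 CPM against 6265 CPM, _mdg1_ at 23595 CPM against 4532 CPM, and _blood_ at 31661 CPM against 6378 CPM. _Tirant_ was at 257 CPM against 202 CPM (log2 0.34), near _opus_ and _297_. Thus _412_, _mdg1_, _blood_, and _17.6_ were past 2-fold where _297_, _opus_, and _GATE_ were not.

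Against y w, 7 of the 41 were higher and 4 lower in Ago3 aubRK, with _gypsy5_, an element of the follicle list, highest (log2 2.36) and _invader6_ lowest (log2 -1.93). In Ago3 aubWT against y w, 27 of the 41 were more than 2-fold lower and 0 higher, with a median of -1.54, while 60 of all 123 were lower and the 3 members lay between 0.98 and 1.26. _gypsy_ fell most of the list (log2 -3.53) and _rover_ rose most (log2 0.65). In Aub, 5 of the 41 were higher and 1 was lower in aubRK than in aubWT, with _gypsy10_ highest (log2 1.34) and _invader6_ lowest (log2 -1.32). In Piwi, 2 were higher and 0 lower, with _invader5_ highest (log2 1.73) and _springer_ lowest (log2 -0.86). The members' direction in Ago3 aubWT was thus not that of most of their group.

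In csulRM50 the list went both ways, with 7 of 41 higher and 12 lower in Ago3 and 8 higher and 11 lower in Aub. _gypsy_ rose most, with log2 changes of 2.65 in Ago3 and 2.92 in Aub, and _Tirant_ fell most, with -2.88 and -2.82. _17.6_ was at 7182 CPM in Ago3 csulRM50 against 18188 CPM in w1118, where _297_ was level. _blood_ was at 8421 CPM in Ago3 csulRM50 against 24147 CPM in w1118. Over all transposons, 31.7% were called lower in Ago3 and 28.5% in Aub.

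Ago3 and Aub were compared across the 4 genotypes that have both. In edgeR's quasi-likelihood test with genotype as a block, 1 of 123 transposons was called at a Benjamini-Hochberg adjusted p of 0.05 (0.813%), and it was no member. There were 13 transposons with an unadjusted p under 0.05, and DESeq2 called 1 with 21 such p-values. _297_ was lower in Ago3 in 4 of 4 genotypes (log2 -0.55, SE 0.155), with an adjusted p of 0.431 in edgeR. Its Ago3 level was 0.597 times that of Aub in aubRK, 0.571 times in aubWT, 0.777 times in csulRM50, and 0.813 times in w1118. _GATE_ (log2 -0.24, SE 0.156, adjusted p = 0.515 in edgeR) and _opus_ (log2 0.19, SE 0.188, adjusted p = 0.687 in edgeR) were not called either. For _opus_, aubWT stood out with a log2 difference of 0.83, against -0.05 in aubRK, 0.02 in csulRM50, and -0.04 in w1118. Without that pair its fitted value is -0.022.

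Each member had a higher sense share in Ago3 than in Aub in 4 of 4 genotypes. The mean difference was 15.1 ± 18.5 points for _297_ (SD, n = 4), and it ranged between 3.54 points in aubRK and 42.7 points in aubWT. For _opus_ it was 20.6 ± 12.3 points (SD, n = 4), ranging between 3.50 points in aubRK and 30.4 points in w1118, which are 1.99 and 15.6 points when identical reads are counted once. For _GATE_ it was 10.6 ± 10.9 points (SD, n = 4), ranging between 3.91 points in aubRK and 26.9 points in aubWT. In an exact two-sided sign-flip permutation test over the 4 genotypes p was 0.125 for each member, which is the smallest value that 4 pairs allow, and 0.125 after adjustment over the 3 members. Without the aubWT pair the mean is 5.93 points for _297_, 17.9 for _opus_, and 5.19 for _GATE_.

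Over all transposons Ago3 was also more sense than Aub, except in aubRK. The share of transposons with a higher sense share in Ago3 was 33.3% in aubRK, 65% in aubWT, 83.5% in csulRM50, and 88.4% in w1118. Relative to the share of each library, _opus_ was higher in Ago3 in 4 of 4 genotypes by a mean of 6.45 points. _297_ was higher in 2 of 4 with a mean of 0.95 points, and _GATE_ in 2 of 4 with a mean of -3.58 points. In aubRK the members went against most others, since 41 of 123 transposons had a higher sense share in Ago3 there and all 3 members were among them. The other gypsy-group elements numbered 3 of 41 on that side.

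In abundance, no transposon passed 2-fold between Ago3 and Aub in csulRM50 (0%), and in w1118 3 of 123 did (2.44%), none of them a member. In aubRK 29 of 123 did (23.6%) and in aubWT 25 (20.3%), again without a member. In aubRK 20 of the 41 gypsy-group elements were more than 2-fold higher in Ago3 and 0 were lower, with _gypsy10_ at log2 3.18, while _297_, _opus_, and _GATE_ lay at -0.74, -0.05, and -0.65. In aubWT 1 of the 41 was higher and 5 were lower. _412_ in w1118 (log2 1.05) was the one element of the list past 2-fold there.

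Piwi, which silences in the nucleus, was compared with the other proteins in aubRK and aubWT. In aubWT, _297_ was at 60489 CPM with Aub against 27676 CPM with Piwi, 2.19-fold higher (log2 1.13), and it was the one member called among 49 of 123 transposons (39.8%), 11 of which were higher (8.94%). It is at 0.91 with identical reads counted once and no member is past 2-fold, but Piwi aubWT has the barcode and Aub aubWT does not. _GATE_ was at 84691 CPM with Aub against 43424 CPM with Piwi (log2 0.96), and _opus_ at 13820.0 CPM against 17860.3 CPM (log2 -0.37). In aubRK no member passed 2-fold between Aub and Piwi, where 36 of 123 transposons did (29.3%). There _GATE_ (log2 0.93), _297_ (log2 0.74), and _opus_ (log2 0.12) were higher in Aub, and without the first Piwi aubRK library _GATE_ passes 2-fold. For comparison, 20 of 41 gypsy-group elements in aubRK and 21 in aubWT were more than 2-fold lower in Aub than in Piwi.

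The sense shares of Aub and Piwi lay close. In aubRK they differed by 0.79 points for _297_, 3.84 for _opus_, and -1.55 for _GATE_, while 71.2% of transposons had a higher share in Aub. In aubWT they differed by -3.83 points for _297_, 0.73 for _opus_, and -5.09 for _GATE_, while 64.7% had a higher share in Aub. The value of _297_ in aubWT is 0.80 with identical reads counted once, but Piwi alone has the barcode there, so the measures are unlike. All transposons together were higher in Aub by 10.9 points in aubRK and 3.12 points in aubWT, so relative to their libraries all members were lower in Aub in both genotypes.

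Between Ago3 and Piwi the genotypes differed. In aubRK, none of the 123 transposons was past 2-fold (0%), and _297_ (log2 0.00), _opus_ (log2 0.08), and _GATE_ (log2 0.28) were level or slightly higher in Ago3. In aubWT, 55 of 123 were past 2-fold (44.7%), 9 of them higher in Ago3 (7.32%). _GATE_ was among these, at 89025 CPM with Ago3 against 43424 CPM with Piwi (log2 1.04), while _297_ was at log2 0.32 and _opus_ at 0.46. With DESeq2 size factors all 3 are past 2-fold in aubWT and with TMM _opus_ and _GATE_ are. The sense shares were higher in Ago3 by 4.33 points for _297_, 7.33 for _opus_, and 2.36 for _GATE_ in aubRK, and by 38.9, 29.4, and 21.8 points in aubWT. All transposons together were higher by 5.46 points in aubRK and 29.5 points in aubWT, relative to which _opus_ in aubRK and _297_ in aubWT were higher and the other 4 values were lower. A higher sense share in Ago3 was found for 67.8% of transposons in aubRK and 81.5% in aubWT.

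**Figure D5:**
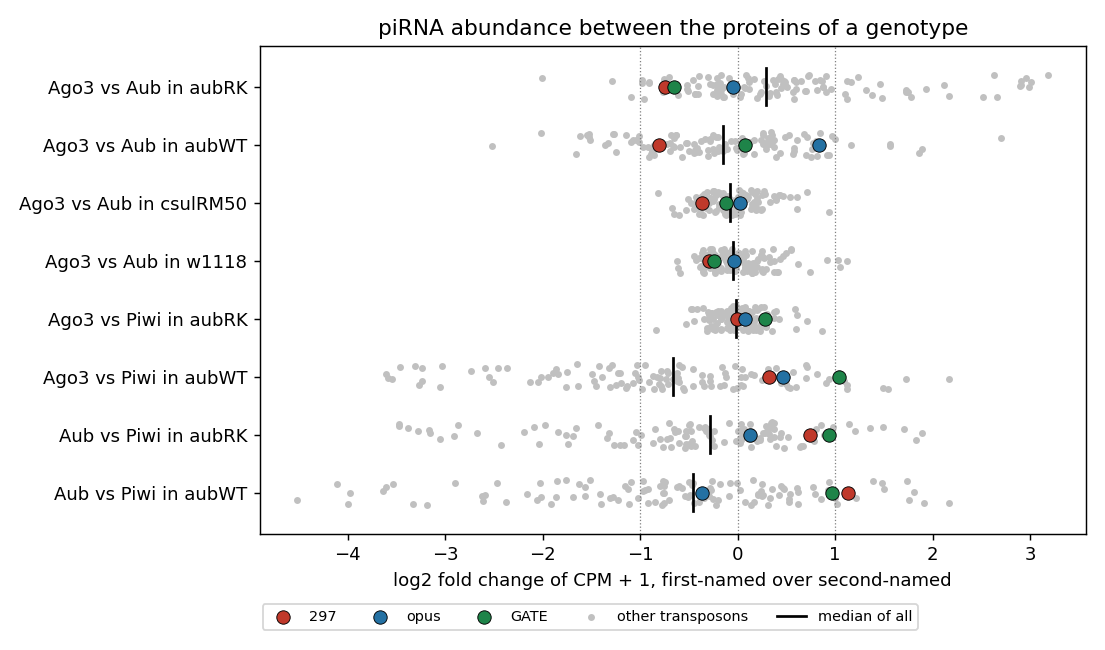
Log2 fold changes of CPM + 1 between proteins within a genotype, the first-named protein over the second; grey points are the other transposons of the 123 tested, coloured points the members, black bars medians over all, and dotted lines mark 0 and 2-fold. All points lie within 2-fold for Ago3 against Piwi in aubRK, where the members lie between 0.00 and 0.28, and _297_ and _GATE_ lie right of the median in both Aub against Piwi rows.

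The patterns of the members over the 12 libraries were set beside those of the other transposons by Spearman's rho, as a description, since the libraries share genotypes, proteins, and antibody sources. In CPM, _297_ was most like _Bari1_ (rho 0.944), _FB_ (0.916), and _roo_ (0.909), of which the first 2 are DNA transposons and _roo_ is an LTR element. _opus_ was most like the gypsy-group elements _mdg3_ (0.895) and _Burdock_ (0.846), and _Doc_ followed at 0.531. _GATE_ was most like _S-element_ (0.874), _Bari1_ (0.769), and _FB_ (0.720). _297_ and _GATE_ resembled each other (0.685), whereas _opus_ was unlike _297_ (0.070) and _GATE_ (-0.20).

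In sense share, _GATE_ was most like _Max-element_ (rho 0.986), _Cr1a_ (0.944), and _Ivk_ (0.909), and _297_ was most like _Ivk_ (0.762), _Cr1a_ (0.755), and _G2_ (0.748). _opus_ was most like _Bari1_ (0.923), _Porto1_ (0.902), and _mdg3_ (0.902). The rho between members was 0.727 for _297_ and _GATE_, 0.608 for _opus_ and _GATE_, and 0.476 for _297_ and _opus_. Over all candidates the median rho with _opus_ was 0.490, against 0.105 with _297_ and 0.182 with _GATE_.

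The reference genome carries the members in unequal numbers and states. In the BDGP6 annotation, _297_ has 89 insertions, of which 34 are at least 6000 bp long and 28 are shorter than 1000 bp. _opus_ has 44, of which 30 are at least 6000 bp long, and _GATE_ has 19, of which 4 are that long and 11 are shorter than 1000 bp. Some annotated insertions overlap. Introns of protein-coding genes hold 39 insertions of _297_, 15 of _opus_, and 4 of _GATE_. Exons are overlapped by 8 of _297_, 1 of _opus_, and 0 of _GATE_, and the others lie outside protein-coding genes. An intron of AGO3 itself contains 2 _GATE_ insertions, of which the longer is 5195 bp long and lies on the minus strand at chr3L:23667509-23672703. The copies that the flies sampled here carry were not measured.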

How the data were processed

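Small RNAs immunoprecipitated with Ago3, Aub, or Piwi were sequenced in 12 libraries of 11 groups. Per the labels and methods, the authors removed adaptors (cutadapt 2.3), reduced identical reads to 1 where a library had a random barcode (3 libraries), and mapped the reads with STAR 2.4.2a on transposon consensus sequences, with dm3 as the genome build. The deposited counts, read copies and entries for the 2 orientations of every transposon, are not normalized. That an entry is a distinct read was taken from the column names and values. In the 3 barcoded libraries entries equal read copies, so reads of the same sequence with different barcodes count apart. Reads that fit more than 1 consensus sequence may be counted more than once.

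CPM are read copies of both orientations, scaled to 1000000 on transposons in that library (totals 1338017 to 47217032, so that 3 counts are at most 0.000224%). Folds are on log2(CPM + 1) over 123 transposons with a mean of at least 100 read copies. A sense share, in percent, entered a comparison with 50 read copies or more in each library. Piwi aubRK entered as the mean of 2 libraries. Nothing states that these came from separate animals, so their spread may be technical. Ago3 and Aub were compared with edgeR 4.0.16 in R 4.3.3 (8 libraries, genotype as a block) and with exact sign-flip tests. The fits were tested on simulated data.

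Named are the members, for each the 3 transposons with the highest Spearman correlation in CPM and in sense share, _17.6_, _412_, _mdg1_, _Tirant_, and _blood_, and the largest rise and fall in a list of 42 gypsy-group elements, of which 41 were used. Not all of these appear in each comparison. The members and lists were chosen with earlier results of these data known. Alternatives were TMM, DESeq2 1.42.0, a pseudocount of 10, no filter or 1000 read copies, entries, single orientations, and a total without the members and _roo_. Entries and library-relative values of sense shares were added after seeing the data. Transposon names are in italics.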

Additional observations from a re-analysis of the deposited data

Results flagged for a closer look

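The change in sense share between aubRK and aubWT had a different direction in different proteins for each member, and these differences between proteins were not tested. For _297_ it was -36.3 points in Ago3, 2.86 in Aub, and -1.77 in Piwi. For _opus_ it was -24.3 points in Ago3, 0.94 in Aub, and -2.17 in Piwi. For _GATE_ it was -16.0 points in Ago3, 6.94 in Aub, and 3.41 in Piwi. Between csulRM50 and w1118, the sense share of _opus_ moved by -3.18 points in Ago3 and by 7.26 points in Aub, which was not tested. All groups are single libraries except Piwi aubRK. The Ago3 aubWT and Piwi aubWT libraries carry a barcode and the Ago3 aubRK library does not, and its part in these values was not tested.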

How the results depend on the processing

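Each comparison between genotypes rests on single libraries. Counting error, with read copies taken as independent, is smaller than the gap of the Piwi aubRK pair except for the sense share of _297_. There it is up to 0.314 points to either side, against a gap of 0.216. No paired analysis was possible because the groups share only the replicate number 1, and Ago3 and Aub were paired by genotype instead. The number of members past 2-fold was within 1.5 times the value given in 107 of 141 comparisons with an alternative, and in all with the larger pseudocount (10), without the filter, and with 1000 read copies as the minimum mean. That rule takes a rise from 2 members to all of them as no change, and the lists below leave such rises out. In Ago3 aubWT against y w, _297_ (log2 0.98) passes 2-fold with sense piRNAs alone (log2 3.30). Relative to the median over all transposons it is at 1.97 there. The 9 folds of members past 2-fold kept their sign in all 90 comparisons with an alternative. Of the 36 within 2-fold, 24 changed sign under 1 or more, in 60 of 378 comparisons, 10 of these with TMM and 9 with DESeq2 size factors. The cause was not tested where a number changed.

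With TMM, 1 member was past 2-fold in Ago3 aubRK against aubWT (_GATE_ lower), 1 in Ago3 against Aub in aubRK (_297_ lower), 2 in Ago3 against Piwi in aubWT (_opus_ and _GATE_ higher), 1 in Aub against Piwi in aubRK (_GATE_ higher), and 2 in aubWT (_297_ and _GATE_ higher). With DESeq2 size factors the numbers were 0 in Aub aubRK against aubWT, 1 in Ago3 aubRK against aubWT (_GATE_ lower), 1 in Ago3 against Aub in aubRK (_297_ lower) and 1 in aubWT (_opus_ higher), 3 in Ago3 against Piwi in aubWT, and 2 in Aub against Piwi in aubRK and 2 in aubWT (_297_ and _GATE_ higher). With identical reads counted once they were 0 in Aub aubRK against aubWT, 1 in Ago3 aubRK against aubWT (_GATE_ lower), 1 against y w (_opus_ higher), and 0 in Aub against Piwi in aubWT. Those with Ago3 aubWT or Piwi aubWT set a barcoded library against one without, which are unlike measures.

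With sense piRNAs alone, 2 members were past 2-fold in Ago3 aubRK against aubWT (_297_ and _GATE_ lower), 1 against y w (_297_ higher), 2 in Aub csulRM50 against w1118 (_297_ and _opus_ higher), 2 in Ago3 against Aub in aubWT and 2 in w1118 (_297_ and _opus_ higher), 1 in csulRM50 (_opus_ higher), 3 in Ago3 against Piwi in aubWT, and 0 in Aub against Piwi in aubWT. With antisense piRNAs alone the numbers were 1 in Ago3 aubRK against aubWT and 1 against y w (_opus_ higher), 0 in Ago3 aubWT against y w, 1 in Ago3 against Aub in aubWT (_297_ lower), 0 in Ago3 against Piwi in aubWT, and 2 in Aub against Piwi in aubWT (_297_ and _GATE_ higher). With a total without the members and _roo_ they were 1 in Ago3 aubRK against aubWT (_GATE_ lower), 1 in Aub against Piwi in aubRK (_GATE_ higher), and 2 in aubWT (_297_ and _GATE_ higher). Leaving out either Piwi aubRK library gave 0 to 1 in Aub against Piwi in aubRK.

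The edgeR comparison of Ago3 with Aub called no member in any alternative, and 0 to 1 transposons. With each genotype pair left out, _opus_ lay between -0.022 (without aubWT, adjusted p = 0.919 in edgeR) and 0.27. The mean difference in sense share ranged from 5.93 to 19.0 points for _297_, 17.4 to 26.3 for _opus_, and 5.19 to 12.8 for _GATE_ when each genotype pair was left out. Relative to the library it was -3.58 points for _GATE_.

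Differences in sense share turned round in 25 of 108 alternatives, which were chosen after seeing the data. With identical reads counted once, the difference was 2.61 for _opus_ in Ago3 csulRM50 against w1118. It was 3.85 points for _297_ and 0.40 for _opus_ in Piwi aubRK against aubWT, and 0.80 for _297_ in Aub against Piwi in aubWT. These last values mix libraries with and without barcode, which are unlike measures. Relative to the library, between genotypes the differences were -3.80 points for _297_ and -5.71 for _opus_ in Aub aubRK against aubWT. In Ago3 aubRK they were 0.82 for _opus_ and 9.09 for _GATE_ against aubWT and 12.5 for _GATE_ against y w, and _opus_ in Ago3 aubWT against y w was at -7.51. In Aub csulRM50 against w1118 they were -6.79 for _297_, -2.66 for _opus_, and -2.27 for _GATE_, and _297_ in Ago3 was at -2.35. Between proteins, Ago3 against Aub gave -8.55 for _297_ and -10.7 for _GATE_ in csulRM50, and -13.0 for _297_ and -13.5 for _GATE_ in w1118. Ago3 against Piwi gave -1.13 for _297_ and -3.10 for _GATE_ in aubRK, and -0.028 for _opus_ and -7.70 for _GATE_ in aubWT. Aub against Piwi gave -10.1 for _297_ and -7.03 for _opus_ in aubRK, and -2.40 for _opus_ in aubWT.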
